A study of Canis lupus familiaris with 9 samples.

Results

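Axon guidance ligands and receptors were followed in canine CD4+ peripheral T-cell lymphoma (PTCL), a cancer of mature T cells, and in normal CD4+ T cells. The set was chosen by gene symbol: semaphorins (SEMA), plexins (PLXN), the neuropilins NRP1 and NRP2, slits, robos, numbered netrins (NTN), the netrin receptors UNC5 and DCC, ephrins (EFNA and EFNB) and Eph receptors (EPHA and EPHB). It held 63 of the 28008 features measured. EPHA10, EPHA2, EPHA3, EFNA2, EFNA3, PLXNA3 and PLXNC1 were not analysed here. RNA sequencing gave 9 libraries. The 3 controls were CD4+ T cells sorted from healthy female hounds aged 1 year and not neutered. The 3 Boxer lymphomas came from a castrated male aged 6 years, a spayed female aged 8 years and a castrated male aged 6 years. The 3 other-breed lymphomas came from a Cavalier King Charles Spaniel (spayed female, 3 years), a Rhodesian Ridgeback (spayed female, 4 years) and a Collie (castrated male, 11 years). The labels call the lymphoma material T-cell lymphoma cells and state sorting for the controls alone. Disease, breed, age, neutering and any difference in sorting therefore cannot be told apart between controls and lymphomas. The labels do not say whether the 3 controls were separate dogs, and a p-value here speaks only of the spread among samples.

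Guidance ligands steer growing axons by attracting or repelling them, and the same molecules act in vessel growth, immune cell contacts and cell migration. Semaphorins signal through plexins, with neuropilins as co-receptors of most secreted class 3 members. Slits signal through robos, netrins through DCC and UNC5 receptors, and ephrins through Eph receptor tyrosine kinases. Because ephrins are held on the cell surface, they can also signal back into the cell that carries them. In lymphocytes several of these genes are used without any nerve: SEMA4D and SEMA4A are cell surface proteins of T cells and antigen-presenting cells, SEMA7A is a T cell surface ligand, and EPHB6 lacks kinase activity and is found on T cells. In vessels, ROBO4, EPHB4, EFNB2, PLXND1, NRP1 and UNC5B are known products of endothelial cells.

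Values are normalised reads, that is, read counts divided by 1 size factor per library, and the libraries held 11710623 to 18488468 reads. A single read was worth 0.789 to 1.36 normalised reads, and 3 reads, the limit that a count of 0 allows, 2.37 to 4.09. Such limits cover counting error only. Levels are not compared between genes, since gene lengths were not used. All 10 T cell markers examined were present in every library: CD3E, a subunit of the T cell receptor complex, had 19717 to 21357 normalised reads in the controls and 13794 to 22222 in the lymphomas. Others did not overlap between controls and lymphomas. CD5 had 10272 to 10649 in controls and 265 to 4320 in lymphomas, and ZAP70 7518 to 8138 and 3024 to 5364. CD3G went the other way, at 9845 to 10791 and 12348 to 16954. CD4 itself was not analysed here, and CD8A stood at 1089 in other-breed lymphoma 1 and at 5.95 to 70.0 in the remaining 8 libraries. Markers of other cells differed by type. Of those tested, 9 of 10 macrophage, 8 of 13 fibroblast and stroma and 5 of 11 endothelial markers were higher in lymphomas. So were 4 of 4 neutrophil and 4 of 7 dendritic cell markers. For CD8 and killer cells it was 1 of 6, and for platelet and erythroid cells 1 of 2. Over all genes tested, 19.4% were higher and 15.7% lower. Of the dendritic cell and T cell markers, 1 each was lower and 1 T cell marker was higher, while 0 of 8 B and plasma cell markers and 0 of 2 epithelial markers passed in either direction (limma). Summed macrophage markers came to 138 to 202 in controls, 6171 to 12848 in Boxer lymphomas and 926 to 21284 in other-breed lymphomas. Without a call, B and plasma cell markers still summed to 2094 to 2423, 1744 to 6390 and 2606 to 7152, in the same order. Epithelial markers summed to 403 to 614, 384 to 5653 and 304 to 2499. In bulk libraries, the number of cells of a type and the RNA per cell cannot be told apart. None of the 8 neural and Schwann cell markers was high enough to be tested, and their sum was 4.63 to 13.6 in controls, 12.3 to 69.7 in Boxer lymphomas and 4.73 to 12.9 in other-breed lymphomas.

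The first comparison asked which guidance genes differ between the 6 lymphomas and the 3 controls. Higher in lymphomas were the Eph receptors EPHB1, EPHB2 and EPHB6 and the ephrin EFNB2, the semaphorin receptors PLXNA2, PLXNB1, PLXND1 and NRP2, the semaphorins SEMA3A, SEMA3D and SEMA5A, the netrin receptors UNC5A and UNC5B, and ROBO1. Lower were 2 membrane semaphorins, SEMA4F and SEMA4G. Of the 63 genes, 43 reached 10 normalised reads in at least 3 libraries and were tested. Past an adjusted p of 0.05 (limma with Benjamini-Hochberg adjustment over all genes tested), 14 were higher, 32.6% of those tested, against 19.4% of all 15977 genes tested. The 2 lower ones were 4.65% of those tested, against 15.7% of all genes, and 35.0% of all genes passed in either direction. The median log2 fold change was 1.70, against 0.05 over all genes. Setting the 3 tested genes without a control read at their lower bound left it at 1.70. It could not move, since all 3 lay above it either way. In 18 of the 43 tested genes every control lay under 10 normalised reads, so these entered through the lymphomas alone, which favours a higher call. Not all of the 18 were called, and they supplied 8 of the 14 higher genes. The share of such genes among all genes tested is not given here. How far they account for the 32.6% was not tested. Every lymphoma lay above every control in 11 of the 43 tested genes (25.6%, against 18.5% of all genes) and below every control in 3 (6.98%, against 17.2%).

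By family, 3 of 5 tested Eph receptors, 1 of 5 ephrins, 2 of 4 netrins and netrin receptors, 4 of 9 plexins and neuropilins, 2 of 3 class 3 semaphorins and 1 of 6 slits and robos were higher, and none of these was lower. Of 11 tested semaphorins of classes 4 to 7, 1 was higher and 2 were lower. Of the 16 calls, 5 held under every alternative run, those of EFNB2, EPHB2, PLXND1, UNC5A and SEMA4F. With age as a covariate, the calls of the other 11 ended, and the higher genes numbered 4, while the share of all genes called higher fell to 6.56%. Age did not vary among the controls, and the dogs aged 3 and 4 years gave the 2 lymphomas with the lowest summed vessel and stroma markers. With sex as a covariate, the higher genes numbered 9 (14.2% of all genes), and the calls of EPHB6, PLXNA2, ROBO1, SEMA3A and SEMA3D ended.

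**Figure D1:**
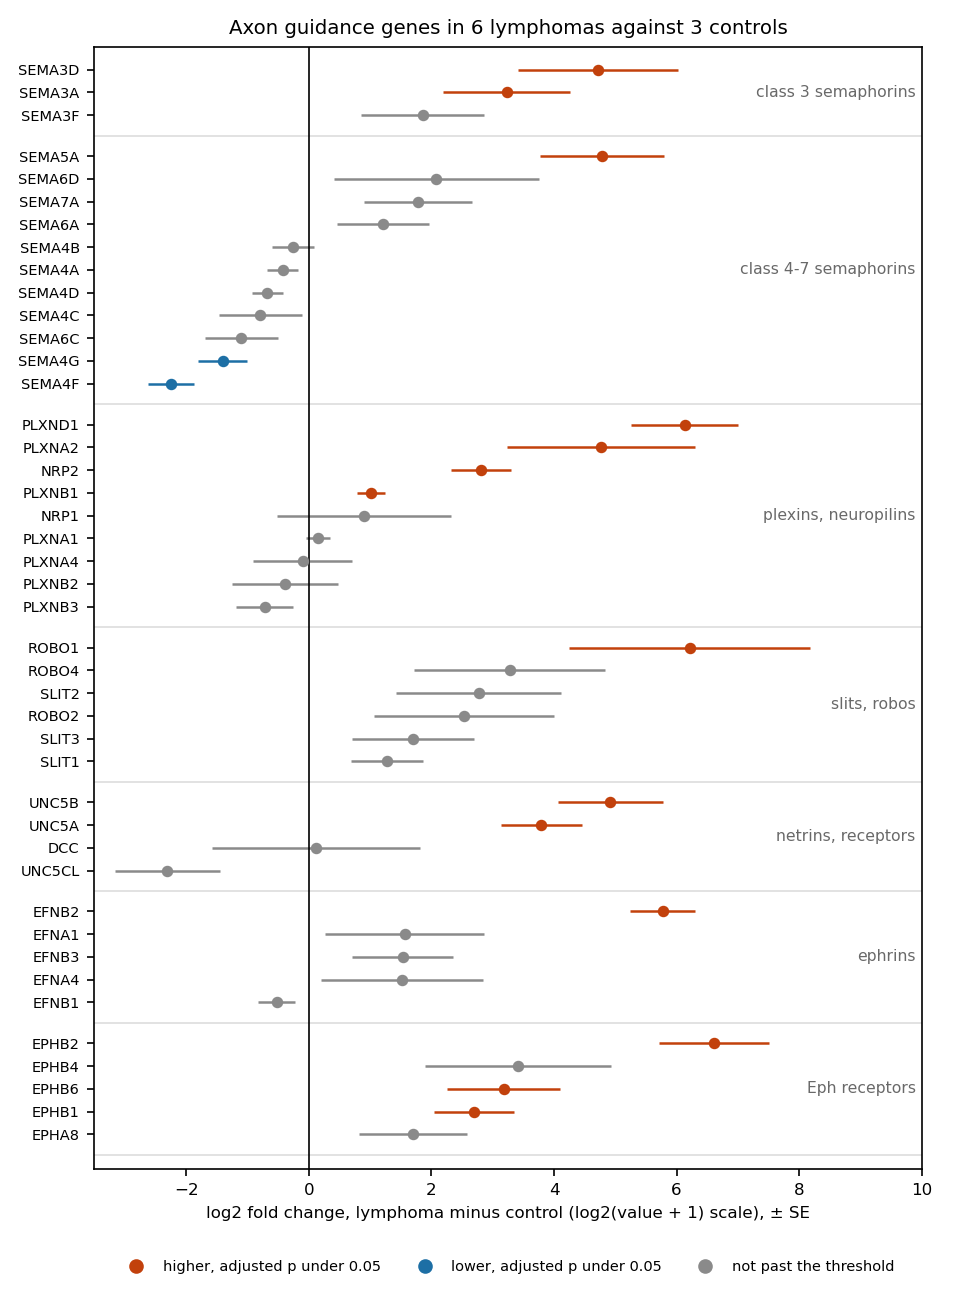
Log2 fold change of lymphomas over controls (horizontal axis, points with SE bars) for the 43 tested guidance genes, grouped by family, with genes past an adjusted p of 0.05 set off by colour. The 14 higher genes come from all 7 families, and both lower genes are membrane semaphorins.

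Among the membrane semaphorins, SEMA4F and SEMA4G fell in lymphomas, SEMA5A rose, and the ligands best known from lymphocytes, SEMA4A, SEMA4D and SEMA7A, did not pass over all 6 lymphomas. SEMA4F (ENSCAFG00000008321), a membrane semaphorin first described in neurons, had 863, 916 and 929.8 normalised reads in controls 1 to 3. It had 225, 155 and 80.2 in Boxer lymphomas 1 to 3 and 229.5, 208 and 333 in other-breed lymphomas 1 to 3. Every lymphoma lay below every control, and SEMA4F fell by 2.25 ± 0.37 on the log2 scale (SE, limma adjusted p = 0.00164), from 903 ± 35.6 (SD, n = 3) to 205 ± 84.3 (SD, n = 6). SEMA4G (ENSCAFG00000009738), another membrane semaphorin, went from 76.4, 52.8 and 67.6 in controls to 32.3, 20.9 and 23.9 in Boxer lymphomas and 25.9, 15.0 and 29.7 in other-breed lymphomas. Its groups did not overlap either, and the log2 fold change was -1.40 ± 0.40 (SE, limma adjusted p = 0.0217). The SEMA4G call ended without any 1 of the controls (adjusted p = 0.0606 to 0.0903).

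SEMA4D (ENSCAFG00000002180, CD100) is a T cell surface ligand of plexin B1 that is also shed. It had 3700.3, 4603 and 5106 normalised reads in controls, 1881, 2355 and 2153 in Boxer lymphomas and 3461, 4140.1 and 3301 in other-breed lymphomas. The 3 Boxer lymphomas lay below all other libraries, whereas other-breed lymphoma 2 lay within the control range. Over all 6 lymphomas the log2 fold change was -0.68 ± 0.25 (SE, limma adjusted p = 0.0613), short of the threshold, and without other-breed lymphoma 2 it was -0.79 (adjusted p = 0.0237). That library was the highest lymphoma for SEMA4D, so leaving it out had to deepen the fall. SEMA4A (ENSCAFG00000016857), a costimulatory ligand of T cells and dendritic cells, had 2692, 4143 and 4605 in controls, 1755, 2597 and 3597 in Boxer lymphomas and 3750.1, 2753 and 2671 in other-breed lymphomas. These ranges overlapped (log2 fold change -0.42 ± 0.25, SE, limma adjusted p = 0.215).

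SEMA4B, which is found on basophils and lymphocytes, had 72.3, 80.1 and 82.4 in controls and 45.9 to 102 in lymphomas (log2 fold change -0.26 ± 0.34, SE). SEMA4C, a ligand of plexin B2 found on some activated lymphocytes, had 58.7, 258 and 229.7 in controls and 23.8 to 173 in lymphomas (-0.79 ± 0.68). Neither passed the test, and control 1 was the lowest control for both. Dendritic cells also carry class 4 semaphorins. Of the 7 dendritic cell markers, CCR7, a homing receptor that T cells use too, was the lower one, at 18291 to 20734 in controls and 6062 to 11061 in lymphomas. CLEC9A, a more specific marker, had 0 to 1.85 in controls and 8.24 to 67.9 in lymphomas. The part of these cells in the semaphorin results was not tested.

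**Figure D2:**
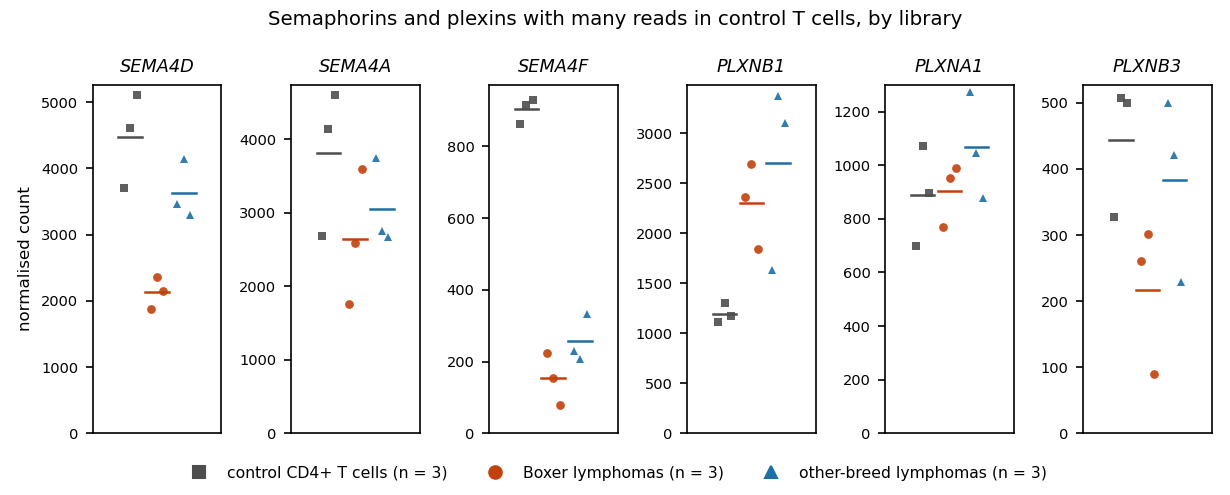
Normalised reads (vertical axis, linear, from 0) of SEMA4D, SEMA4A, SEMA4F, PLXNB1, PLXNA1 and PLXNB3 in the 9 libraries, each point 1 library and each bar a group mean. These 6 genes were chosen after their values were seen. In SEMA4F all 6 lymphomas lie below 863, the lowest control, and in PLXNB1 all lie above 1299, the highest.

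SEMA5A (ENSCAFG00000010102), a membrane ligand of plexin B3 with thrombospondin repeats, had 8.19, 0 and 0 normalised reads in controls. The lymphomas had 85.8, 29.4 and 165 in Boxers and 9.42, 132 and 60.5 in other breeds. All lymphomas lay above the controls, other-breed lymphoma 1 only just, and the gene rose by 4.79 ± 1.01 on the log2 scale (SE, limma adjusted p = 0.00539), or by 5.85 without control 1. SEMA6D, a ligand of plexin A1 that takes part in T cell and dendritic cell contacts, was uneven: 24.6, 0 and 2.78 in controls, 17.8, 37.9 and 149.9 in Boxer lymphomas and 0, 2.37 and 143 in other-breed lymphomas. SEMA7A (ENSCAFG00000017916), which binds an integrin and plexin C1, had 27.3, 61.9 and 75.9 in controls, 96.0, 722 and 359 in Boxer lymphomas and 43.6, 60.7 and 436 in other-breed lymphomas. In both genes other-breed lymphomas 1 and 2 stayed within the control range, and neither passed limma (adjusted p = 0.348 and 0.138). SEMA7A passed with DESeq2 (adjusted p = 0.0115), and both passed without other-breed lymphomas 1 and 2 (adjusted p = 0.0300 and 0.0130). Those were the 2 lowest lymphomas in both genes, so leaving them out had to raise the fold change. Of the remaining tested ones, SEMA6A had 6.48 to 9.55 in controls and 3.15 to 44.8 in lymphomas, and SEMA6C 71.0 to 84.6 and 11.8 to 91.3, with no call for either.

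The secreted class 3 semaphorins, the ligands that use neuropilins, were close to silent in the controls. SEMA3D (ENSCAFG00000006128) had no read in any control. It had 79.9, 43.6 and 70.8 normalised reads in Boxer lymphomas and 1.18, 3.15 and 141 in other-breed lymphomas. The lymphomas were at least 55.8-fold higher from the reads pooled over each group, with 3 reads set for the controls (limma adjusted p = 0.0191), although other-breed lymphomas 1 and 2 lay near the level of a few reads. SEMA3A (ENSCAFG00000006212), the prototype axon repellent, likewise had no control read, and had 6.80, 19.0 and 15.6 in Boxer lymphomas and 5.89, 0 and 37.1 in other-breed lymphomas. It was at least 13.4-fold higher over the pooled reads (limma adjusted p = 0.0350), with other-breed lymphoma 2 at 0 like the controls. Both calls ended without any 1 of the controls, at an adjusted p of 0.0644 to 0.0663 for SEMA3D and of 0.101 to 0.107 for SEMA3A. The SEMA3A call also ended without Boxer lymphoma 1 (adjusted p = 0.0507) and with a pseudocount of 5 (0.0578). SEMA3F, a ligand of NRP2, had 4.63 to 8.19 in controls and 3.53 to 131 in lymphomas and did not pass (limma adjusted p = 0.169).

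The receptors of semaphorins were measured in all 9 cases at a level that allowed a test. PLXND1 (ENSCAFG00000004613), a receptor of class 3 and class 4 semaphorins in vessels and thymocytes, had 1.36, 4.95 and 5.56 normalised reads in controls. It reached 671, 391 and 574 in Boxer lymphomas and 35.3, 262 and 706 in other-breed lymphomas. All lymphomas exceeded the controls, with a mean of 439.7 ± 261 (SD, n = 6) against 3.96 ± 2.27 (SD, n = 3) and a log2 rise of 6.13 ± 0.87 (SE, limma adjusted p = 7.50e-04), which was 6.76 without other-breed lymphoma 1. PLXNB1 (ENSCAFG00000012685), the receptor of SEMA4D, was already well expressed in controls, at 1118, 1299 and 1177. It had 2361, 2694 and 1843 in Boxer lymphomas and 1638, 3376 and 3099 in other-breed lymphomas, again with no overlap. PLXNB1 rose by 1.02 ± 0.23 on the log2 scale (SE, limma adjusted p = 0.00785).

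PLXNA2 (ENSCAFG00000011756), a receptor of class 6 semaphorins and, with neuropilins, of class 3, had 12.3, 0 and 1.85 normalised reads in controls. It had 62.9, 88.2 and 91.6 in Boxer lymphomas and 2.35, 1238 and 265 in other-breed lymphomas. The Boxer lymphomas were alike, while the other breeds spanned from the control range to the highest value. Its log2 rise of 4.77 ± 1.54 (SE, limma adjusted p = 0.0350) was 5.76 without control 1, 3.89 without control 2, 5.72 without other-breed lymphoma 1 and 4.01 without other-breed lymphoma 2. It lost its call without control 2 or 3 (adjusted p = 0.148 and 0.105), without Boxer lymphoma 2 or 3 (0.0545 and 0.0557), without other-breed lymphoma 3 (0.0603) and with the replicate number as a block (0.0522). The neuropilins parted. NRP2 (ENSCAFG00000013191), the co-receptor of SEMA3F, had 58.7, 41.3 and 70.4 in controls, 734, 273 and 437 in Boxer lymphomas and 146, 394 and 761 in other-breed lymphomas. All 6 lymphomas lay above the controls, and NRP2 rose by 2.81 ± 0.49 on the log2 scale (SE, limma adjusted p = 0.00210). NRP1 (ENSCAFG00000003776), the co-receptor of SEMA3A and of vascular endothelial growth factor, had 31.4, 28.1 and 46.3 in controls. It had 119, 319 and 234 in Boxer lymphomas but 2.35, 8.67 and 283 in other-breed lymphomas. Other-breed lymphomas 1 and 2 thus lay below all controls and the other 4 lymphomas above all, with a log2 difference of 0.90 ± 1.42 (SE, limma adjusted p = 0.644).

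Other plexins did not pass. PLXNA1 (ENSCAFG00000003989), a receptor of SEMA3A with NRP1 and of SEMA6D, was even, at 700.2, 1072 and 897 in controls and 768 to 1272 in lymphomas (log2 fold change 0.15 ± 0.19, SE). PLXNB3, the receptor of SEMA5A, had 328, 507 and 499 in controls and 89.5 to 500.3 in lymphomas (-0.72 ± 0.47, SE). PLXNB2, a receptor of class 4 semaphorins that is widely expressed outside the nervous system, had 203, 168 and 225 in controls, 299, 205 and 371 in Boxer lymphomas and 28.2, 39.4 and 449 in other-breed lymphomas. PLXNA4, which pairs with neuropilins, had 12.3, 13.2 and 14.8 in controls, 22.1, 11.4 and 42.7 in Boxer lymphomas and 4.71, 2.37 and 23.3 in other-breed lymphomas. In PLXNB2 and PLXNA4, as in NRP1, other-breed lymphomas 1 and 2 were the only libraries well below the controls.

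In the slit and robo family, ROBO1 alone passed, and 1 library stood far above the rest. ROBO1 (ENSCAFG00000007903), a receptor of slits, had 9.55, 0.826 and 0 normalised reads in controls. Boxer lymphoma 1 had 19514, Boxer lymphomas 2 and 3 had 161 and 223, and the other-breed lymphomas had 7.06, 31.5 and 332. In Boxer lymphoma 1 this was 22969 reads, or 0.136% of the library (Wilson 95% interval 0.134% to 0.138%), and other-breed lymphoma 1 lay within the control range. The log2 fold change was 6.21 ± 1.97 (SE, limma adjusted p = 0.0328), and without Boxer lymphoma 1 it was 4.89 (adjusted p = 0.0176). Leaving out 1 library gave 4.89 to 7.20, the highest without control 1, with 7.14 without other-breed lymphoma 1 and 5.50 without control 3. The call ended without control 1, 2 or 3 (adjusted p = 0.0546, 0.108 and 0.123), without Boxer lymphoma 3 (0.0533) or other-breed lymphoma 3 (0.0534) and with a pseudocount of 5 (0.0616), and DESeq2 gave no adjusted p.

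ROBO4 (ENSCAFG00000011022), the robo of endothelial cells, had 1 read in all controls together. It had 11.0, 33.2 and 59.3 normalised reads in Boxer lymphomas and 0, 0 and 122 in other-breed lymphomas. The ratio of pooled reads was 106 (exact 95% interval 18.9 to 4221, counting error only), but limma did not call it over the 6 lymphomas (adjusted p = 0.125). SLIT2 (ENSCAFG00000016608), a secreted ligand of robos, had 9.55, 0 and 2.78 in controls, 12.7, 30.3 and 131 in Boxer lymphomas and 5.89, 1.58 and 160.3 in other-breed lymphomas. It did not pass either (adjusted p = 0.132). Without other-breed lymphoma 1, ROBO4 passed (adjusted p = 0.0471), and without other-breed lymphoma 2 both did (0.0491 and 0.0491). Each time a lowest lymphoma of the gene was left out, so the fold change had to rise. Both passed with DESeq2 (ROBO4 0.00509, SLIT2 0.0160). ROBO2 lay at 0 to 5.56 in controls and 0 to 143 in lymphomas, SLIT1 at 5.56 to 9.55 and 6.80 to 39.4, and SLIT3 at 10.9 to 35.2 and 10.6 to 239, with no call.

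Among netrin genes both calls were receptors. UNC5B (ENSCAFG00000014319), a repulsive netrin receptor of axons and vessels, had 1.36, 10.7 and 1.85 normalised reads in controls. It had 182, 51.2 and 249 in Boxer lymphomas and 271, 27.6 and 258 in other-breed lymphomas. Every lymphoma lay above every control, other-breed lymphoma 1 with the highest value, and UNC5B rose by 4.92 ± 0.85 on the log2 scale (SE, limma adjusted p = 0.00205), or by 5.64 without control 2. UNC5A (ENSCAFG00000016621), its paralogue, had 4.09, 4.13 and 1.85 in controls, 23.8, 25.6 and 146 in Boxer lymphomas and 91.8, 93.8 and 45.6 in other-breed lymphomas. It also showed no overlap, with a rise of 3.80 ± 0.66 (SE, limma adjusted p = 0.00208).

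DCC, the attractive netrin receptor, was uneven among lymphomas, at 1.70, 335 and 202 in Boxers and 1.18, 25.2 and 2.12 in other breeds, against 32.8, 4.95 and 21.3 in controls (log2 fold change 0.12 ± 1.70, SE). UNC5CL, a UNC5-like protein known for death-domain signalling, had 17.7, 69.4 and 62.0 in controls and 3.12 to 49.3 in lymphomas (-2.31 ± 0.86, SE, limma adjusted p = 0.0594). The netrins themselves were too low to be tested. NTN4, a netrin of basement membranes, was the only one above 20, with 6.82, 0 and 0 in controls and 3.15 to 36.4 in lymphomas. NTN3 had no read in any library.

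The ephrin result was EFNB2 (ENSCAFG00000006022), a transmembrane ligand of EPHB receptors and a marker of arteries. It had 13.6, 11.6 and 10.2 normalised reads in controls, 1292, 1015 and 218 in Boxer lymphomas and 1148, 811 and 425 in other-breed lymphomas. The lowest lymphoma, Boxer lymphoma 3, lay well above the highest control. EFNB2 rose from 11.8 ± 1.74 (SD, n = 3) to 818 ± 421 (SD, n = 6), a log2 rise of 5.77 ± 0.53 (SE, limma adjusted p = 6.81e-05). In other-breed lymphomas 1 and 2, where EFNB2 stood at 1148 and 811, the endothelial marker CDH5 had 1.18 and 6.31 normalised reads and TIE1 had 0 and 0. Other endothelial markers went both ways there. ENG had 753 and 36.3, against 127 to 163 in controls, and EGFL7 had 354 and 294, against 158 to 203. PECAM1 had 28.2 and 30.0, against 32.4 to 44.6 in controls. Each of these 2 libraries exceeded every control in 5 of the 11 endothelial markers. The part of vessel cells in the EFNB2 result was not tested. EFNB1 (ENSCAFG00000016734), a T cell ephrin, had 94.2, 87.5 and 90.8 in controls, 57.8, 45.5 and 68.7 in Boxer lymphomas and 77.7, 62.3 and 71.1 in other-breed lymphomas. All lymphomas lay below the controls, but the difference of -0.52 ± 0.30 on the log2 scale (SE) did not pass (limma adjusted p = 0.201). EFNA1, an ephrin of vessels and T cells, had 0, 2.48 and 2.78 in controls, 7.65, 11.4 and 20.8 in Boxer lymphomas and 0, 0 and 48.8 in other-breed lymphomas. EFNA4 (1.85 to 4.13 in controls, 0 to 63.1 in lymphomas) and EFNB3 (1.65 to 8.33 and 3.18 to 46.7) had no call either.

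The 3 Eph receptors that rose were all of the B class, whose main ligands are the B ephrins. EPHB2 (ENSCAFG00000014323) had no read in any control. It had 345, 112 and 188 normalised reads in Boxer lymphomas and 187, 38.6 and 14.9 in other-breed lymphomas. All 6 lymphomas were above the limit of 3 reads, and the pooled reads were at least 149-fold higher (limma adjusted p = 5.78e-04). EPHB1 (ENSCAFG00000006971), a further kinase of the class, was low throughout, at 2.73, 2.48 and 1.85 in controls, 11.9, 17.1 and 14.6 in Boxer lymphomas and 44.7, 10.3 and 52.0 in other-breed lymphomas. Its groups did not overlap, and it rose by 2.69 ± 0.65 (SE, limma adjusted p = 0.0103).

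EPHB6 (ENSCAFG00000003745), the receptor without kinase activity, was the one Eph gene with a clear level in control T cells, at 79.2, 130.4 and 118. It had 1431, 951 and 6814 in Boxer lymphomas and 458, 1399 and 143 in other-breed lymphomas. Even the lowest lymphoma exceeded the controls, by little, and the spread among lymphomas was wide. Its log2 rise of 3.18 ± 0.93 (SE, limma adjusted p = 0.0233) lost its call without control 1, 2 or 3 (adjusted p = 0.0887, 0.0657 and 0.0691). EPHB4 (ENSCAFG00000014162), the venous partner of EFNB2, had 6.82, 0 and 0 in controls, 28.9, 45.5 and 142 in Boxer lymphomas and 0, 3.94 and 90.2 in other-breed lymphomas. EPHB4 did not pass in limma (log2 fold change 3.41 ± 1.51, SE, adjusted p = 0.103), and did without other-breed lymphoma 1 (4.29, adjusted p = 0.0171) and with DESeq2 (4.58, adjusted p = 0.0158). Other-breed lymphoma 1 was its lowest lymphoma, so leaving that library out had to raise the fold change. EPHA8, the only tested receptor of the A class, had 0.826 to 12.04 in controls and 4.25 to 73.1 in lymphomas (1.70 ± 0.88, SE, limma adjusted p = 0.155).

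**Figure D3:**
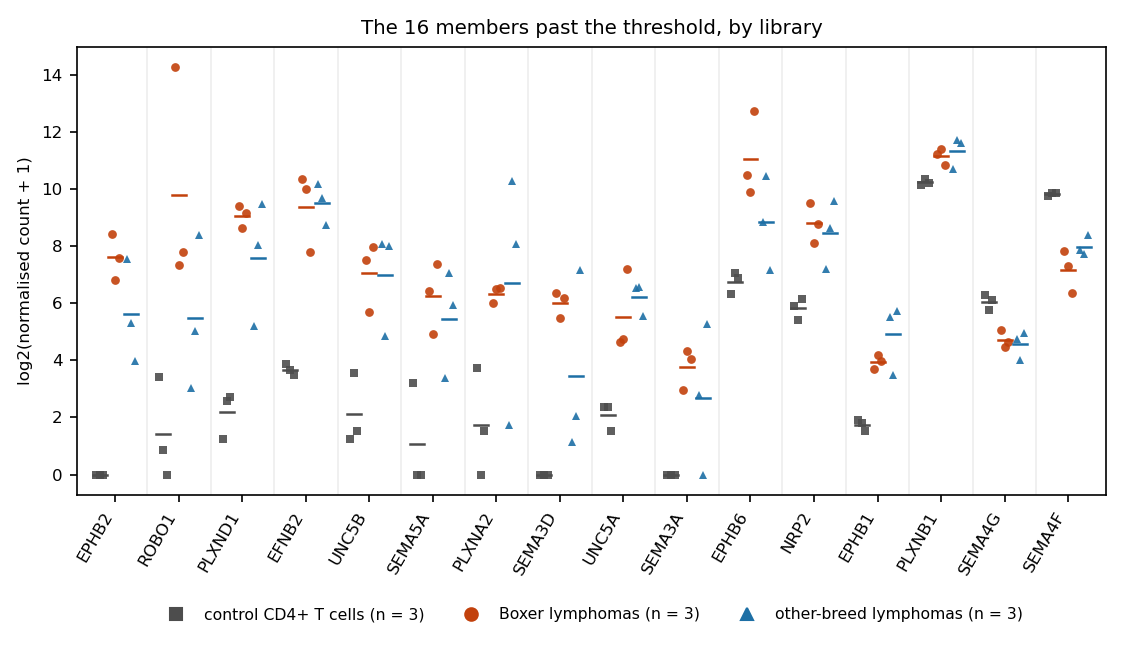
Level of the 16 genes past an adjusted p of 0.05 in each library, as log2 of the normalised reads plus 1 (vertical axis), with 1 point per library and a bar at each group mean. EFNB2, PLXNB1 and NRP2 show tight controls and no overlap, while ROBO1, PLXNA2 and SEMA3D have 1 or 2 other-breed lymphomas near the controls.

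The remaining 20 genes were too low for a test: EFNA5, EPHA1, EPHA4, EPHA5, EPHA6, EPHA7, EPHB3, NTN1, NTN3, NTN4, NTN5, ROBO3, SEMA3B, SEMA3C, SEMA3E, SEMA3G, SEMA5B, SEMA6B, UNC5C and UNC5D. Several of them had reads mainly in 1 lymphoma. EPHA1 had 62.6 normalised reads in other-breed lymphoma 3, 1.04 in Boxer lymphoma 3 and no read in the remaining 7 libraries. EPHA4, an Eph receptor of T cells, had 15.0, 0 and 1.85 in controls, 0, 5.69 and 29.2 in Boxer lymphomas and 0, 0 and 8.49 in other-breed lymphomas. EFNA5 had no control read, and had 149 in other-breed lymphoma 1 and 0.850 to 7.58 in the other 5. Of these, Boxer lymphoma 1 and other-breed lymphomas 2 and 3 were within the limit of 3 reads. Across all 63 genes, 38 to 49 had a read in a control library and 43 to 59 in a lymphoma, and 7 to 9 reached 100 normalised reads in a control against 12 to 23 in a lymphoma.

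Many of the genes had the same low libraries among the lymphomas. Other-breed lymphomas 1 and 2 were the 2 lowest of the 6 lymphomas in 18 of the 43 tested genes, or 41.9%, against 10.8% of all genes tested. These were EFNA1, EPHB4, NRP1, PLXNA4, PLXNB2, PLXND1, ROBO1, ROBO2, ROBO4, SEMA3A, SEMA3D, SEMA3F, SEMA6A, SEMA6C, SEMA6D, SEMA7A, SLIT2 and SLIT3, and 4 of the 14 higher genes are among them. Other-breed lymphoma 3 was the highest lymphoma in 13 of 43 (30.2%, against 15.6% of all genes). Most markers of vessels, stroma and macrophages were lowest among lymphomas in the same libraries. CDH5, the cadherin of endothelial junctions, had 0, 0.826 and 0 normalised reads in controls, 98.5, 185 and 372 in Boxer lymphomas and 1.18, 6.31 and 495 in other-breed lymphomas. VWF, the endothelial clotting protein, had 12.3, 0.826 and 4.63, then 673, 1244 and 1136, and then 4.71, 14.2 and 2927. COL1A1, a fibroblast collagen, had 2.73, 0 and 5.56, then 554, 396 and 2185, and then 30.6, 6.31 and 1434. These 3 markers were thus lowest among lymphomas in other-breed lymphomas 1 and 2. So were 9 of the 11 endothelial, 9 of the 13 fibroblast and stroma and 9 of the 11 macrophage and monocyte markers. The pattern was thus not particular to vessels and stroma. Other-breed lymphomas 1 and 2 still exceeded every control in 9 and 10 of the 11 macrophage and monocyte markers.

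Summed over the list, the 11 endothelial markers ranged from 669 to 1032 in controls, from 2092 to 5517 in Boxer lymphomas and from 458 to 8368 in other-breed lymphomas. The 13 fibroblast and stroma markers ranged from 2858 to 3795, from 5023 to 21049 and from 1789 to 13353. In other-breed lymphomas 1 and 2, TIE1 and EMCN (endothelial) and DCN (fibroblast) were at 0. Each of these 2 libraries still exceeded every control in 5 of the 11 endothelial markers, and in 7 and 8 of the 13 fibroblast and stroma markers. In other-breed lymphoma 1, ENG had 753 normalised reads, against 127 to 163 in controls, and THY1 had 3322, against 2304 to 2809.5. The part of vessel cells, stromal cells and macrophages in the guidance gene results was not tested. Without other-breed lymphomas 1 and 2, 25 of 41 tested guidance genes were higher and 3 lower (22.8% and 17.3% of all genes). EFNA1, EPHB4, NRP1, ROBO4, SEMA6D, SEMA7A and SLIT2 were among the calls gained. In each of these genes the 2 libraries left out were the 2 lowest lymphomas, so the fold change had to rise. The count of 25 is therefore not a separate test of the pattern. In these 2 libraries EFNB2, UNC5A, UNC5B, EPHB1, EPHB2, EPHB6, NRP2, PLXNB1, PLXND1 and SEMA5A were above all controls, while SEMA3D, at 1.18 in other-breed lymphoma 1, was within the limit of 3 reads.

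**Figure D4:**
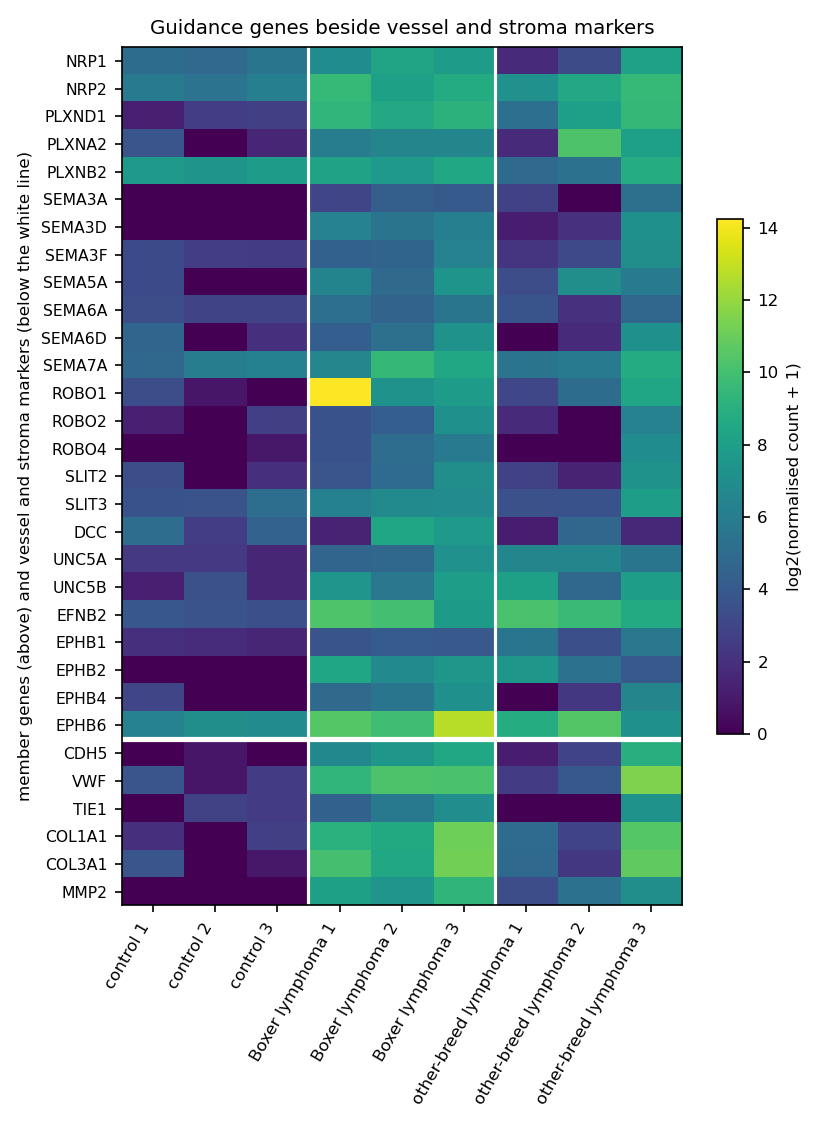
Heat map of log2 of the normalised reads plus 1 (colour scale) for 25 guidance genes and 6 vessel and stroma markers (rows) in the 9 libraries (columns). The genes were chosen after their values were seen. In other-breed lymphomas 1 and 2 the markers and ROBO4, SEMA3D and NRP1 are low, whereas EFNB2 is high in all 6 lymphomas.

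The second comparison asked whether lymphomas of Boxers and of other breeds differ in these genes, with the controls left out. No guidance gene passed: 0 of 42 tested, as for all 15112 genes (0.0%), by limma, and 0 also with edgeR and DESeq2. An unadjusted p under 0.05 was reached by 1 of the 42, SEMA4D, and by 4.98% of all genes. The median log2 difference, Boxer minus other breeds, was 1.13 over the 42 and 0.02 over all genes. The other-breed group was uneven. Its lymphomas 1 and 2 were the 2 lowest in 18 of the 43 genes tested against controls. Its lymphoma 3 was the highest in 13. The part of these libraries in the median was not tested. SEMA4D had 1881, 2355 and 2153 normalised reads in Boxer lymphomas and 3461, 4140.1 and 3301 in the other breeds, with no overlap and a log2 difference of -0.77 ± 0.19 (SE, limma adjusted p = 0.881). It was the only one of the 42 with every Boxer lymphoma below every other (5.7% of all genes were), and SEMA4B, at 63.5 to 102 against 45.9 to 61.5, the only one with every Boxer lymphoma above (4.99% of all genes). EPHB6 (2.22 ± 0.98, SE) and NRP1 (3.31 ± 1.55, SE) came next by p, and their groups overlapped. In NRP1 other-breed lymphoma 3, at 283, lay with the Boxers.

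Set against the same 3 controls, each lymphoma group gave its own counts, and since these controls are shared, the 2 sets of values are given side by side only. A gene with every control under 10 was tested here only if all 3 lymphomas of the group reached 10, which favours a higher call. How far such genes account for the shares was not tested. In Boxer lymphomas 22 of 38 tested genes were higher (57.9%, against 21.5% of all genes) and 3 were lower (17.9% of all genes). In other-breed lymphomas 8 of 29 were higher (27.6%, against 15.5%) and 3 were lower (14.2% of all genes). The counts rest on different genes and do not measure a breed difference. EPHB4, ROBO1, ROBO2, ROBO4, SEMA3D and SEMA3F were higher in Boxer lymphomas and not tested in other breeds. In each of them other-breed lymphomas 1 and 2 were the 2 lowest lymphomas. EFNB2 had a log2 fold change of 5.70 in Boxer and 5.85 in other-breed lymphomas, and UNC5B of 4.96 and 4.88. EPHB2 stood at 7.61 and 5.62, fitted values that depend on the pseudocount since its controls had no read, PLXND1 at 6.88 and 5.39, and NRP1 at 2.55 and -0.76. SEMA4F had -2.67 and -1.84, SEMA4G -1.33 and -1.48, and SEMA4D -1.06 and -0.29, of which the last alone did not pass (limma adjusted p = 0.244).

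**Figure D5:**
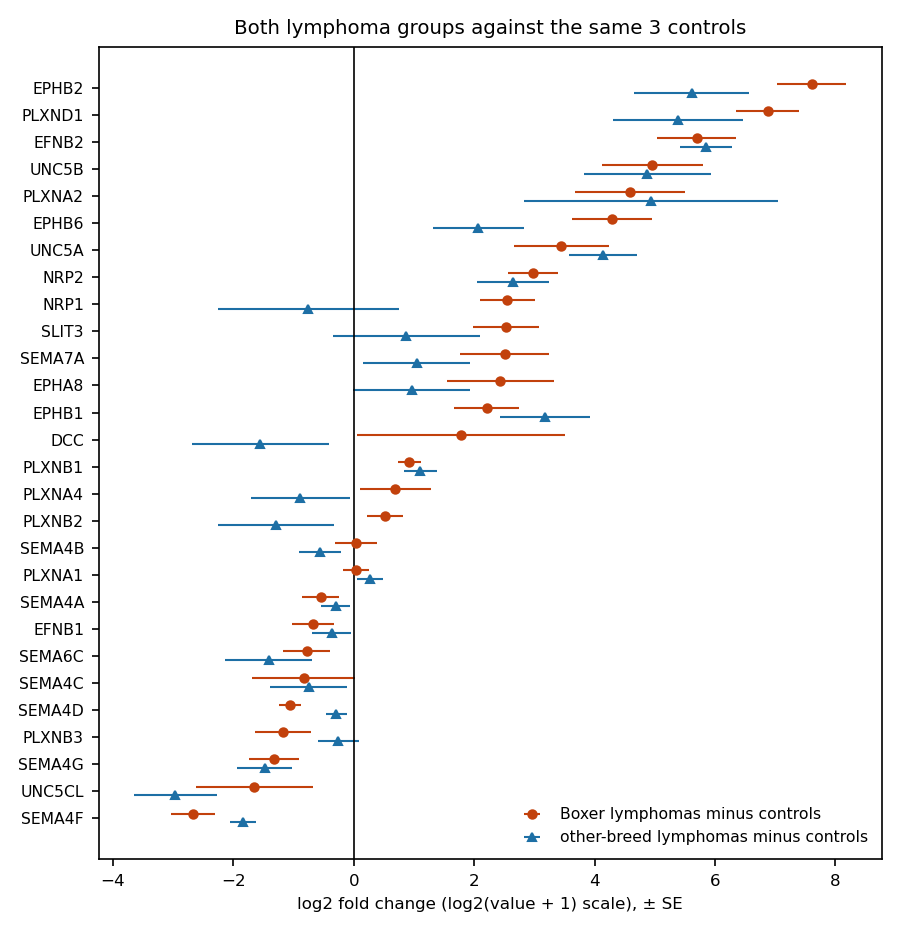
Log2 fold change over the 3 controls (horizontal axis, points with SE bars) of Boxer lymphomas and of other-breed lymphomas for 28 guidance genes that could be tested in both. EFNB2 and UNC5B lie at like values in both groups, and NRP1 lies at 2.55 in Boxers and at -0.76 with a wide bar in other breeds.

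Genes that act next to or below these receptors were read from a list of 107 symbols, of which 94 were found and 83 tested. In lymphomas 21 were higher (25.3%, against 19.4% of all genes) and 16 lower (19.3%, against 15.7%), with a median log2 fold change of 0.39, so both shares lay near those of all genes. Without control 1 the lower genes numbered 5, without control 2 and 3 they numbered 8 and 9, and a fit with age left 7 higher and 10 lower. DESeq2 called 33 higher. In the comparison of Boxer with other-breed lymphomas, 0 of 82 passed with limma.

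Of the 19 tested genes of plexin and neuropilin signalling, 6 were higher and 2 lower. FES, a tyrosine kinase that acts below plexin A1, went from 114 ± 16.4 (SD, n = 3) to 1368 ± 362 (SD, n = 6) normalised reads and rose by 3.54 ± 0.24 on the log2 scale (SE, limma adjusted p = 2.08e-05). FARP1, a guanine nucleotide exchange factor, rose from 219 ± 44.6 to 1406 ± 428 (log2 fold change 2.64 ± 0.26, SE, limma adjusted p = 8.94e-05), while its paralogue FARP2, which binds plexin A1, fell by 1.93 ± 0.41 on the log2 scale. CRMP1, a collapsin response mediator of SEMA3A signalling, rose by 6.10 ± 1.33, with lymphomas from 26.8 to 2264. RND1, a small GTPase that binds plexins, fell by 2.12 on the log2 scale.

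Of the 20 robo and netrin receptor signalling genes, 5 were higher and 6 lower. DOCK1, a Rac activator used by DCC, went from 10.4 ± 9.18 (SD, n = 3) to 1159 ± 289 (SD, n = 6), with lymphomas from 721 to 1527, a log2 rise of 6.99 ± 0.48 (SE, limma adjusted p = 2.15e-05). SRGAP1, a GTPase-activating protein that binds robos, rose by 5.34 ± 0.72, and DAPK1, a kinase tied to cell death signals of UNC5 receptors, by 5.03 ± 0.78. On the lower side, TRIO, a guanine nucleotide exchange factor for Rac, fell by 1.15 ± 0.18 on the log2 scale, SOS1 by 1.39 and the adaptor NCK1 by 0.92.

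Of 15 co-receptors and other guidance receptors, 3 were higher and 2 lower. NEO1 (neogenin), a DCC relative, rose by 5.67 ± 0.97 from 7.46 ± 9.20 (SD, n = 3) to 321 ± 222 (SD, n = 6) (SE, limma adjusted p = 0.00192). ITGA1, the integrin subunit that SEMA7A binds with ITGB1, fell by 3.00 ± 0.36 on the log2 scale (SE, limma adjusted p = 3.14e-04). TYROBP, also a macrophage marker, and ERBB2 were the other higher ones. Of 12 Eph and ephrin signalling genes, 2 were higher, the ephrin-cleaving protease ADAM10 (0.71) and the phosphatase PTPN11 (0.39), and 3 were lower, CHN2 (-2.32), RASA1 (-1.01) and CBL (-0.46).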

How the data were processed

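Libraries were made from oligo(dT)-selected RNA by random priming, per the labels' protocols. The submitters' processing notes name TopHat2, HTSeq, DESeq2 and the dog build CanFam3.1, without versions. Strand use was not given in the sources used here, and overlapping antisense genes may share reads. The deposited signal of a gene is a scaled read count: the authors divided each library's counts by a single factor. Whole reads were recovered (100% of values whole, within 0.01 reads). These factors matched median-of-ratios size factors computed over the 9 libraries.

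The values being scaled counts, limma 3.58.1 (R 4.3.3; empirical Bayes with a mean-variance trend) was fitted on log2(value + 1), which understates changes of low genes. Genes at 10 or more in at least 3 compared libraries were tested. Benjamini-Hochberg adjustment ran over all genes tested, with a threshold of 0.05. The fits were 6 lymphomas against 3 controls, and 3 Boxer against 3 other-breed lymphomas. The scripts were tested on simulated data. Folds against controls with no read are lower bounds from pooled reads, with 3 reads set for the controls, and cover counting error only. edgeR 4.0.16 and DESeq2 1.42.0 on the recovered reads, other scalings, pseudocounts and filters, covariates and left-out libraries were the alternatives.

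Named with values were up to 12 genes per direction with the largest called fold change and a mean of at least 20 in the higher group, the 3 with the smallest p between breeds, 26 genes found of 27 with known roles in lymphocytes or vessels, and up to 3 downstream genes per list and direction by p. Other genes given with values, such as SEMA6A, DCC and the genes at a few reads, were added after their values were seen. The genes and all lists were chosen with earlier results of these data known. No genome coordinates or sequences were used here. One group of downstream genes is counted in the totals and is not reported here.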

Additional observations from a re-analysis of the deposited data

Results flagged for a closer look

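Among the 51 guidance genes with enough reads to examine, 10 had 1 lymphoma far from the other 5 by Dixon's criterion. Normally distributed values meet this criterion by chance in about 1 of 20 groups. It was applied here to normalised reads without a log scale. The share over all genes is not given, so the 10 are not read as an excess. Boxer lymphoma 1 held 4 of these high values: ROBO1 at 19514 normalised reads (next lymphoma 332), SEMA5B at 158 (9.55), SEMA3C at 103 (25.5) and EPHA8 at 73.1 (23.7). Boxer lymphoma 3 held 2, EPHB6 at 6814 (1431) and EPHA4 at 29.2 (8.49). UNC5CL was at 49.3 in Boxer lymphoma 2 (11.9), EFNA5 at 149 in other-breed lymphoma 1 (7.58), PLXNA2 at 1238 in other-breed lymphoma 2 (265) and EPHA1 at 62.6 in other-breed lymphoma 3 (1.04). All 10 were high values.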

How the results depend on the processing

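The number of higher guidance genes in lymphomas, 14, was 9 with sex and 4 with age as a covariate, 22 with Boxer lymphomas only, 8 with other-breed lymphomas only, 25 without other-breed lymphomas 1 and 2, and 9 in female dogs only. Over all genes the share called higher, 19.4%, was 14.2%, 6.56%, 21.5%, 15.5%, 22.8% and 15.1% in these fits, in that order. The Boxer and other-breed fits tested 38 and 29 guidance genes, so their counts rest on different genes. Other-breed lymphomas 1 and 2 were the 2 lowest lymphomas in many of the guidance genes, so the rise to 25 is not a separate result. Leaving out 1 library gave 9 to 17, with 10 without control 1 and 9 without control 2 or 3 (13.3%, 11.9% and 12.7% of all genes). The 2 lower genes became 1 to 3, with 1 without each control (7.60% to 8.48% of all genes, against 15.7%). The 21 higher downstream genes numbered 33 with DESeq2, 7 with age, 32 with Boxer lymphomas only and 32 without other-breed lymphomas 1 and 2 (15 to 27 with 1 library left out). The 16 lower ones numbered 10 with age and 5 to 16 with 1 library left out. Between breeds, 0 genes passed under each alternative run. With TMM factors or library totals no count changed, and the median over all genes was 0.04.

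Of the 16 calls, 0 changed sign. Directions changed only for genes without a call over the 6 lymphomas, as log2 fold changes. With age, EFNA1 was at -2.28, EPHB4 at -0.49, NRP1 at -3.43, ROBO4 at -1.59, SEMA6D at -2.35, SEMA7A at -0.75 and SLIT2 at -0.64. With sex, EFNA1 was at -0.029 and NRP1 at -0.70. NRP1 was at -0.76 with other-breed lymphomas only and at -0.70 in female dogs. PLXNA4 was at 0.023 with a pseudocount of 5, 0.37 with edgeR, 0.40 with DESeq2, 0.14 and 0.30 without other-breed lymphoma 1 or 2 (-0.44 to 0.30 with 1 library left out), 0.69 with Boxer lymphomas only and 0.71 without other-breed lymphomas 1 and 2. PLXNB2 was at 0.19 with edgeR, 0.22 with DESeq2, 0.087 without other-breed lymphoma 1 (-0.70 to 0.087 with 1 library left out), 0.52 with Boxer lymphomas only and 0.68 without other-breed lymphomas 1 and 2. PLXNA1 was at -0.011 without control 1 (to 0.30 with another library left out), and SEMA4B at 0.040 with Boxer lymphomas only. The cause was not tested for any of these.

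Replicate numbers did not pair the libraries: correlations of deviations within a number ran from -0.14 to 0.10, and 1 of 9 libraries correlated best with its own number. With the replicate number as a block, 13 guidance genes were higher and 2 lower, 20 and 12 downstream genes passed, and 0 passed between breeds. The 3 libraries a group, an age that differs fully between controls and lymphomas, and genes at a few reads limit these results. At 3 reads or fewer a gene cannot be told from a silent one.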
